A study of Rattus norvegicus with 48 samples.

Results

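The 3 neurofilament subunit genes Nefl (ENSRNOG00000013658), Nefm (ENSRNOG00000013916) and Nefh (ENSRNOG00000008716) were followed in rat motor cortex around implanted silicon electrodes. They were taken by their Ensembl IDs from the 18997 distinct genes of both deposited count tables, and all 3 were present in both and passed the low-count filter in every comparison. All animals were wild-type Sprague-Dawley rats, and those that received a probe were males aged 12 to 14 weeks at insertion. The implanted rats carried a single-shank Neuronexus probe in the primary motor cortex (M1) and were examined at 24 h (3 rats), 1 week (5 rats) or 6 weeks (4 rats), and 3 naive rats carried no implant. Brains were fixed by perfusion with 4% paraformaldehyde and cut at 20 µm, and tissue was cut from the sections with a laser at depths of 600 to 1700 µm. Near tissue reached up to 100 µm from the shank. Far tissue was taken about 500 µm away and pooled from 4 smaller pieces, and naive cortex was collected under the same 2 distance labels, 100 and 500 µm. Some rats gave tissue from both hemispheres, so the 48 libraries came from 15 rats, and the rat was the replicate.

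Neurofilaments are the intermediate filaments of neurons and are abundant in large myelinated axons. The light subunit, encoded by Nefl, is the core on which the filament assembles, while the medium and heavy subunits, encoded by Nefm and Nefh, add long phosphorylated tails that project from the filament and take part in setting axon calibre. Because the transcripts are made in neurons, their level in cut tissue depends both on how many neuronal cell bodies and processes the piece holds and on how much transcript each carries, and in these bulk samples fewer neurons and less RNA per neuron cannot be told apart.

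The files give Ensembl IDs only, and the symbols of the 3 genes came with the choice of these genes and were not checked here. For the same reason neuronal, glial and vascular marker genes, and other cytoskeletal genes, were not analysed here. Libraries held 3363892 to 12844185 counts and 3062 to 16023 genes with at least 1 count. The members were deeply counted, with 563 to 12244 counts per library for Nefl, 613 to 11812 for Nefm and 243 to 9504 for Nefh. Few genes, under 6000, were detected in 4 libraries: 1 near library of rat 29 (24 h), 1 each of rats 20 and 23 (1 week) and 1 far library of rat 23. A single pair of genes was the most abundant throughout, and its share of the counts was higher near than far in 12 of 12 implanted rats and higher at 100 than at 500 µm in 1 of 3 naive rats.

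Levels are given as CPM, that is, counts divided by the library total and multiplied to a shared size, after TMM scaling, which aligns the bulk of genes between samples, with the libraries of a rat summed per distance. The light subunit at 24 h was at 303, 1332 and 981 CPM near and at 386, 934 and 767 CPM far in rats 25, 29 and 30. At 1 week, in rats 9, 10, 20, 22 and 23, it was at 370.4, 522, 358, 109 and 499 CPM near and at 829.7, 479, 766, 567.7 and 394 CPM far. Rat 22 had by far the lowest near value, and near tissue was below far tissue in rats 9, 20 and 22 only. At 6 weeks, in rats 2, 11, 17 and 19, Nefl was at 929, 559, 638 and 891 CPM near and at 884, 851, 1033 and 967 CPM far. In naive rats n2, n3 and n5 it was at 422, 767 and 489 CPM at 100 µm and at 678, 623 and 679 CPM at 500 µm. The spread between rats was smallest in naive tissue at 500 µm, at 659.8 CPM ± 31.6 (SD, n = 3), and largest near the implant at 24 h, at 872 CPM ± 523 (SD, n = 3).

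Nefm at 24 h was at 137, 1431 and 1097 CPM near and at 297, 705 and 896 CPM far in the same order of rats. At 1 week it was at 195, 465, 791, 119.9 and 280.1 CPM near and at 554, 431, 259.96, 316 and 144 CPM far. Its direction differed between rats at 1 week, with near tissue above far tissue in rats 10, 20 and 23 and below it in rats 9 and 22. At 6 weeks it was at 1512, 845, 862 and 847 CPM near and at 1030.3, 619, 776 and 729.6 CPM far, so that the near value was the higher in each of the 4 rats. In naive tissue Nefm was at 94.3, 412 and 252.5 CPM at 100 µm and at 869, 464 and 514 CPM at 500 µm, the lower value lying at 100 µm in each of the 3 rats.

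Nefh at 24 h was at 104, 1073.5 and 814 CPM near and at 179, 457 and 432 CPM far. At 1 week it was at 119, 141, 168, 47.0 and 163 CPM near and at 219, 269.9, 145, 149 and 62.0 CPM far. At 6 weeks it was at 922, 315, 456 and 439 CPM near and at 366, 275, 404 and 504 CPM far. Near tissue at 1 week thus held the narrowest range of Nefh of the implanted groups, at 128 CPM ± 49.2 (SD, n = 5), and no rat of that group reached the lowest rat at 6 weeks. In naive tissue Nefh was at 105.5, 242 and 136 CPM at 100 µm and at 386, 144 and 244 CPM at 500 µm.

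**Figure D1:**
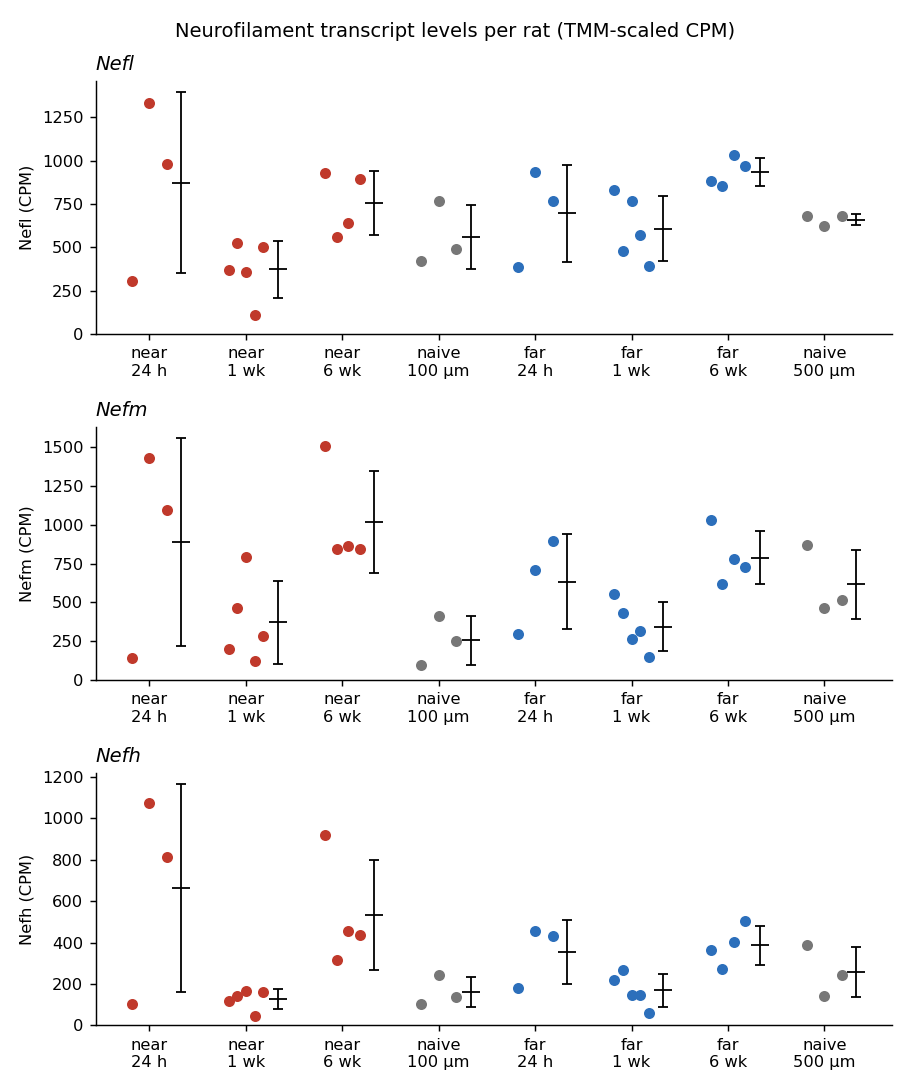
Level of Nefl, Nefm and Nefh per rat (TMM-scaled CPM, linear axes from 0) in near, far and naive tissue, with the group mean and SD beside the points. Every point is 1 rat and distance, and in both near and far tissue the 1-week rats lie below the 6-week rats for all 3 genes, which was not so in right hemispheres alone.

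Ordered by mean, the Nefl level ran from far tissue at 6 weeks (934 CPM) down through near at 24 h, near at 6 weeks, far at 24 h, naive 500 µm, far at 1 week and naive 100 µm to near at 1 week (372 CPM). Nefm was highest near at 6 weeks (1016.5 CPM) and lowest in naive tissue at 100 µm (253 CPM), with far and near tissue at 1 week next to lowest. Nefh was highest near at 24 h (664 CPM) and lowest near at 1 week (128 CPM). For each of the 3 genes the ranges of any pair of groups next to each other in this order overlapped.

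At 24 h the 3 genes kept 1 order of rats near the implant, with rat 25 lowest, rat 30 between and rat 29 highest. The share of counts held by the 2 most abundant genes followed that order in near tissue, at 16.5%, 28.3% and 42.9% in rats 25, 30 and 29, and its part in the levels was not tested. The SD of near tissue at 24 h was 59.95% of the mean for Nefl, 75.6% for Nefm and 75.6% for Nefh.

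The comparison of near with far tissue of the same rats asks whether the transcripts differed beside the shank. It was made with edgeR's quasi-likelihood test with the rat as a block, and adjusted p-values are Benjamini-Hochberg values over all genes of a comparison unless DESeq2 is named. Each ± after a fitted log2 fold change is its approximate standard error. At 1 week Nefl was called lower near the implant, by a log2 fold change of -0.82 ± 0.21 (0.567-fold, adjusted p = 0.0259). It was 1 of 57 genes called among 14399, or 0.396%, of which 8 were higher and 49 lower, and with DESeq2 size factors 41 genes were called, 20 higher and 21 lower. The median log2 fold change of all genes in that comparison was -0.66, so Nefl stood at the 46.9th percentile, and the median was -0.47 with DESeq2 size factors. Nefl was lower near in 3 of 5 rats, and the ratio of near to far ran from 0.192 in rat 22 to 1.27 in rat 23.

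The call of Nefl was made in 6 of 23 alternative settings, each left-out rat counting as 1, with adjusted p-values from 0.000413 to 1. It was lost with DESeq2 size factors (-0.59, adjusted p = 0.374), with DESeq2's own test (-0.59, adjusted p = 0.18), without the rat as a block (-0.70, adjusted p = 0.534) and when the 4 few-gene libraries were dropped (-0.90, adjusted p = 0.202). On left hemispheres alone the value of Nefl was -0.087 and on right hemispheres alone -0.82 (adjusted p = 1 for both). Leaving out rat 22 gave -0.45 (adjusted p = 0.973), leaving out rat 9 gave -0.71 (0.171), rat 20 gave -0.74 (0.523) and rat 10 gave -1.08 (0.0711). It was also lost without rat 2, 11 or 19 of the 6-week group (adjusted p = 0.233, 0.295 and 0.066), which share the fit. Without rat 23 the value was -1.13 (adjusted p = 0.000413).

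Nefm and Nefh were not called near against far at any time. At 24 h, where 0.132% of 14399 genes were called, the log2 fold changes were 0.16 ± 0.25 for Nefl, 0.06 ± 0.57 for Nefm and 0.46 ± 0.34 for Nefh (adjusted p = 1 for each). At 1 week they were -0.03 ± 0.46 for Nefm (adjusted p = 1) and -0.39 ± 0.27 for Nefh (adjusted p = 0.964), and the Nefm value turned positive with DESeq2 size factors (0.19). At 6 weeks, where 0.0764% of genes were called, they were -0.35 ± 0.22 for Nefl, 0.33 ± 0.48 for Nefm and 0.35 ± 0.29 for Nefh (adjusted p = 1 for each). Nefm lay above far tissue in 4 of 4 rats at 6 weeks, as did 6.82% of 10981 genes, by 1.11 to 1.47 times. Rats 2 and 11 gave left libraries only, and on right hemispheres alone, from rats 17 and 19, the Nefm value was -0.95. The right libraries of rat 17 held 129 CPM near and 523 CPM far, and those of rat 19 held 462 and 437 CPM.

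Averaged over the 3 times, 217 of 14399 genes, or 1.51%, were called near against far, and the members were not among them. The mean log2 fold changes were -0.34 ± 0.13 for Nefl (adjusted p = 0.316), 0.12 ± 0.29 for Nefm and 0.14 ± 0.18 for Nefh (adjusted p = 1 for both), against a median of -0.39 over all genes. Over the 12 implanted rats the mean difference of log2(CPM + 1), near minus far, was -0.42 for Nefl with 7 rats lower near (exact permutation test by sign flips, two-sided p = 0.104, n = 12). It was 0.11 for Nefm with 9 rats higher near (exact permutation p = 0.689) and 0.08 for Nefh with 7 rats higher near (exact permutation p = 0.773). The smallest p that 12 rats can give is 0.000488. Single rats ran from -2.37 to 0.51 for Nefl, from -1.50 to 1.60 for Nefm and from -1.64 to 1.38 for Nefh. The direction also differed between hemispheres. In a fit of left hemispheres alone the values averaged over the times were 0.0045 for Nefl, 0.62 for Nefm and 0.78 for Nefh (adjusted p = 1, 0.0876 and 0.163), and in a fit of right hemispheres alone they were -0.77, -0.52 and -0.81 (adjusted p = 0.199, 0.742 and 0.741), a difference between sides that was not tested.

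**Figure D2:**
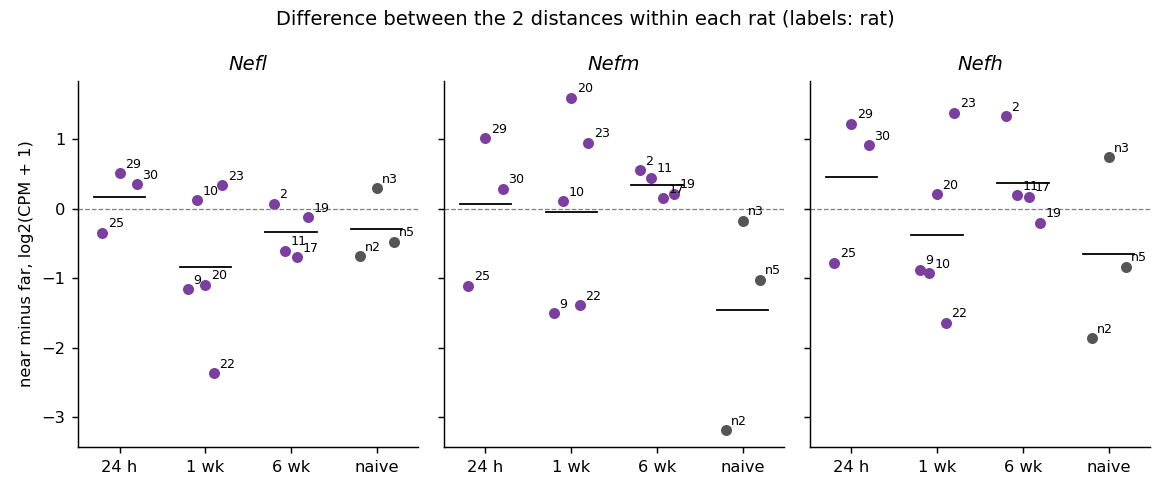
Near minus far difference of log2(CPM + 1) within each rat, by time, for the 3 genes, and the difference between the 100 and 500 µm positions in naive rats. Points are rats, named beside them, and bars are means; the dashed line is no difference, and the rats of each gene fall on both sides of it.

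The near-far difference itself was not shown to change with time. Between 24 h and 1 week 0 of 14399 genes (0%) were called by edgeR, although 258 had an unadjusted p under 0.05, and 416 were called by DESeq2. The change of the Nefl difference was -0.98 ± 0.33, which ranked 10th of 14399 genes by its unadjusted p of 0.00286 but had an adjusted p of 1, and that of Nefh was -0.85 ± 0.44 (adjusted p = 1). The median change of all genes was -0.55, and by size the Nefl change lay at the 42.4th percentile. From 1 week to 6 weeks 4 genes were called (0.0278%) and from 24 h to 6 weeks 3 genes (0.0208%), none of them a member. From 1 to 6 weeks the changes were 0.46 ± 0.30 for Nefl, 0.36 ± 0.66 for Nefm and 0.74 ± 0.40 for Nefh (adjusted p = 1 for each), where the median of all genes was 0.63.

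Between times, the 3 genes were lower at 1 week than at 6 weeks in both tissues, without overlap between rats. The same was seen in left hemispheres alone and not in right hemispheres alone, and the sides were unevenly spread over the times. Near the implant the means at 1 and 6 weeks were 372 CPM ± 164 (SD, n = 5) and 754 ± 183 (SD, n = 4) for Nefl, 370.4 ± 268 and 1016.5 ± 331 for Nefm, and 128 ± 49.2 and 533 ± 267 for Nefh. The highest rat at 1 week and the lowest at 6 weeks were 522 and 559 CPM for Nefl, 791 and 845 for Nefm, and 168 and 315 for Nefh. Such separation near the implant was seen for 1.71% of 10377 genes. The exact two-sided permutation test over rats (5 against 4) gave p = 0.0238 for Nefl, p = 0.0159 for Nefm and p = 0.00794 for Nefh, the last being the smallest these numbers of rats allow. The differences of mean log2(CPM + 1) were 1.17, 1.71 and 2.06.

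In far tissue the means at 1 and 6 weeks were 607 CPM ± 186 and 934 ± 82.0 for Nefl, 341 ± 158 and 789 ± 174 for Nefm, and 169 ± 79.3 and 387 ± 95.0 for Nefh (SD, n = 5 and n = 4). The highest rat at 1 week and the lowest at 6 weeks were 829.7 and 851 CPM for Nefl, 554 and 619 for Nefm, and 269.9 and 275 for Nefh; the Nefh groups nearly touched. Separation of this kind held for 1.04% of 11156 genes. The exact permutation test gave p = 0.0397 for Nefl and p = 0.0159 for both Nefm and Nefh. Only 8 of 12838 genes (0.0623%) showed it in near and in far tissue, and 3 of these 8 were the neurofilament genes. Near and far tissue came from the same 9 rats, so the 2 tissues are not independent. The 3 genes also varied together over the sums of the implanted rats (Pearson r of 0.78 to 0.92), so they are not independent either. They were chosen with earlier results of these data known.

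The edgeR fits across genes did not call these differences. In simulated data for the near comparison such a fit also called some unchanged genes, of which the adjustment allows a share. Adjusted p-values of fits with few rats may be too small. Fits of single hemispheres or with a rat left out were not simulated, and the same limit is kept for them. Near the implant the log2 fold changes from 1 to 6 weeks were 1.01 ± 0.36 for Nefl (adjusted p = 0.723), 1.45 ± 0.69 for Nefm (adjusted p = 1) and 2.06 ± 0.56 for Nefh (adjusted p = 0.723), and 1 of 12799 genes was called (0.00781%). DESeq2 gave 1.94 for Nefh with an adjusted p of 0.0178, and it called 1.25% of genes. In far tissue they were 0.63 ± 0.22, 1.22 ± 0.40 and 1.20 ± 0.36 (adjusted p = 0.9 for each), and 0 of 12995 genes (0%) were called by edgeR, 661 had an unadjusted p under 0.05 and 129 were called by DESeq2. Among all genes the members ranked high by fold change, between the 78.7th and 90.6th percentile near and between the 79.7th and 89.9th percentile far. The permutation tests are unadjusted, and 36 of them were computed between groups of rats, of which 9 had a p under 0.05.

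The separation rested in part on the scaling and on the summing of libraries. With DESeq2 size factors 5 genes separated in both tissues, 1 of them a member; with library totals 7 genes did, 2 of them members. Without the 2 most abundant genes in the scaling the counts were 8 and 3, as before. Leaving out the 4 libraries of few detected genes kept all 6 separations, with an exact permutation p of 0.0286 for each gene near (4 rats against 4, the smallest possible). The share of all genes that separated in this setting was not computed, and the shares given above are for all libraries. As single libraries the groups overlapped in both tissues. Near the implant 2 of the 6 libraries at 6 weeks lay below the highest library at 1 week for every member. In far tissue 1 of 6 did so for Nefl, 2 of 6 for Nefm and 1 of 6 for Nefh, all from rats 17 and 19.

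The 2 near libraries were the right hemispheres of rats 17 and 19, and hemisphere was not balanced between the times. At 1 week 4 libraries of each tissue were right and 2 left, and at 6 weeks 4 were left and 2 right. Among left hemispheres, near Nefh was at 151 to 180.0 CPM at 1 week (2 libraries) and at 338 to 1018 CPM at 6 weeks (4 libraries). Among right hemispheres it was at 50.4 to 153 CPM at 1 week (4 libraries) and at 75.6 and 112 CPM at 6 weeks, so that no difference between the times was seen there. Near Nefl showed the same split, at 383 and 394 CPM against 599 to 1365 CPM on the left, and at 117 to 568.04 CPM against 326 and 381 CPM on the right.

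For Nefm the left near libraries were at 241 and 846 CPM at 1 week and at 905 to 1719 CPM at 6 weeks, and the right ones at 129 to 506 and at 129 and 462 CPM. On the left side every member separated the 2 times in near and in far tissue, as did 0.653% of 13022 genes, and on the right side none did, against 0.515% of 13408 genes. The left 1-week libraries were only 2, from rats 20 and 23, and 1 of these in each tissue was among the 4 with few detected genes. In edgeR fits on left hemispheres alone, added after seeing the data, the near log2 fold changes from 1 to 6 weeks were 1.33 for Nefl, 1.28 for Nefm and 2.14 for Nefh (adjusted p = 0.132, 0.768 and 0.592). On right hemispheres alone they were -0.11, 0.15 and -0.27 (adjusted p = 1 for each). In far tissue the left values were 1.06, 2.36 and 2.45 (adjusted p = 0.542, 7.77e-07 and 0.000334) and the right ones 0.50, 0.32 and 0.51 (adjusted p = 1 for each). The left far fit called 0.0248% of 12079 genes. Over all alternatives the adjusted p-values ran from 0.132 to 1 for Nefl, 0.000975 to 1 for Nefm and 2.33e-07 to 1 for Nefh near, and from 0.448, 7.77e-07 and 0.000334 to 1 far. Whether the difference between the times differs between hemispheres was not tested.

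Near the implant the means of all 3 genes were lower at 1 week than at 24 h, but the 24-h group held rat 25, whose levels lay within the 1-week range. The log2 fold changes were -1.24 ± 0.38 for Nefl and -2.38 ± 0.59 for Nefh (adjusted p = 0.753 for both) and -1.26 ± 0.73 for Nefm (adjusted p = 1), where 0.0469% of 12799 genes were called. Without rat 25 the Nefh value was -2.88 (adjusted p = 1.53e-11) and without rat 29 it was -1.83 (adjusted p = 0.0297), each from 2 rats against 5, where adjusted p-values may be too small. Those fits called 0.117% and 0.0364% of genes. Nefh was called in 7 of 21 alternatives in this comparison, with adjusted p-values from 1.53e-11 to 0.918. The groups overlapped, and the exact permutation p over 3 against 5 rats was 0.179 for Nefl, 0.339 for Nefm and 0.0893 for Nefh. In far tissue the same changes were -0.21 ± 0.24, -0.91 ± 0.43 and -1.09 ± 0.38 (adjusted p = 1 for each), where edgeR called 0 genes (0%), 546 had an unadjusted p under 0.05, and DESeq2's calls numbered 196.

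Between 24 h and 6 weeks none of the members was called. Near tissue gave -0.23 ± 0.40 for Nefl, 0.18 ± 0.79 for Nefm and -0.33 ± 0.62 for Nefh (adjusted p = 1 for each), where 0.0234% of genes were called. Far tissue gave 0.41 ± 0.26, 0.31 ± 0.46 and 0.11 ± 0.41 (adjusted p = 1 for each), where 0 genes (0%) passed in edgeR, 533 had an unadjusted p under 0.05 and 219 passed in DESeq2. At 24 h rat 25 was the lowest of the 3 rats in both tissues for every member.

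**Figure D3:**
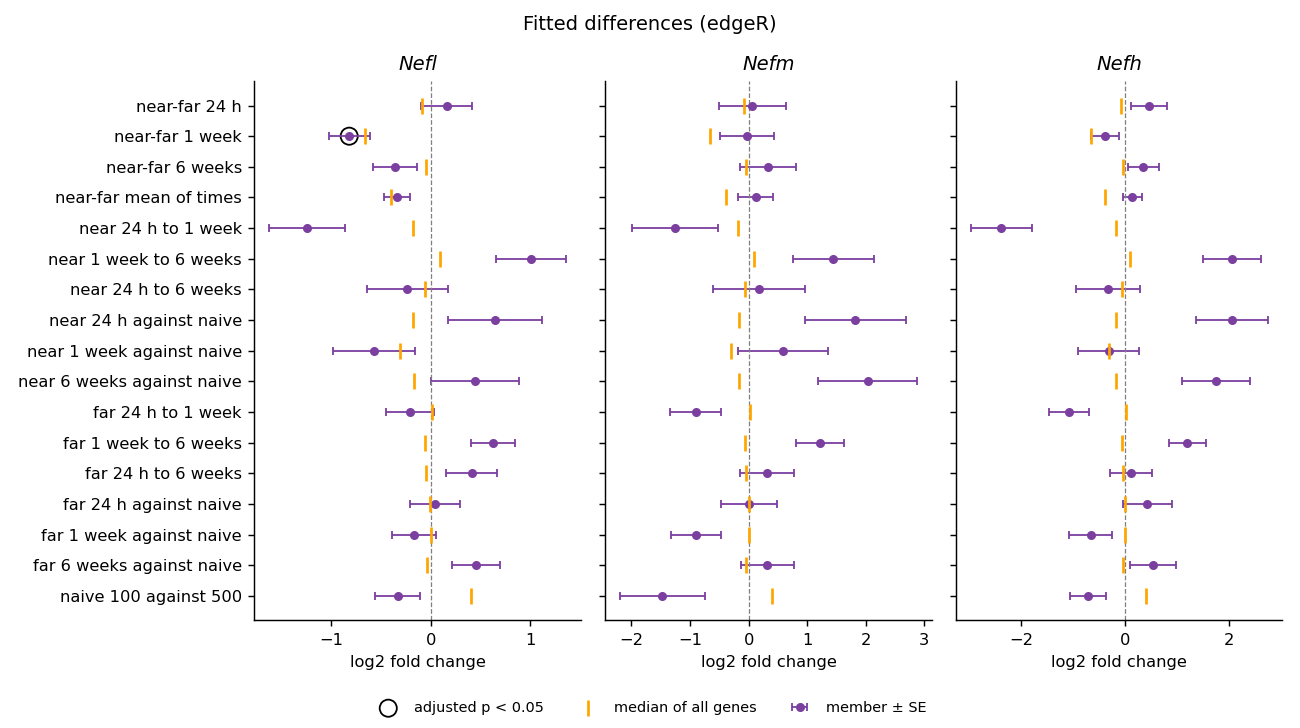
Fitted log2 fold change of each gene in the near-far, time and naive comparisons (edgeR, points with approximate standard errors), with the median of all genes in orange and a ring around the call at adjusted p below 0.05. Nefl near against far at 1 week is the only ringed value, and it lies close to the median of all genes.

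In the 6 rats with libraries from both hemispheres, near Nefh was higher on the left in 6 of 6, a pattern shown by 3.55% of 13085 genes. The left and right values were 122 and 85.1 CPM in rat 25, 1147 and 475 CPM in rat 29, and 1211 and 309 CPM in rat 30. At 1 week rat 23 had 151 and 131 CPM, and at 6 weeks rat 17 had 899.5 and 75.6 CPM and rat 19 had 739 and 112 CPM. The ratio of left to right thus ran from 1.15 to 11.9, widest at 6 weeks. Near Nefl and Nefm were higher on the left in 5 of 6 rats each, and the largest ratio was 13.3 for Nefm in rat 17, at 1719 against 129 CPM.

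In far tissue Nefh was higher on the left in 4 of 6 rats. In naive tissue it was higher on the left in 1 of 6 pairs of libraries, and the largest gap was the other way, at 73.0 CPM left and 612 CPM right in naive rat n2 at 500 µm. The number of genes detected was also higher on the left in 5 of 6 near pairs and in 0 of 6 far pairs, and its part in the difference was not tested. Pairs of libraries of 1 rat differed by a median of 1.47 times for Nefl, 1.62 times for Nefm and 2.22 times for Nefh over all 18 pairs.

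**Figure D4:**
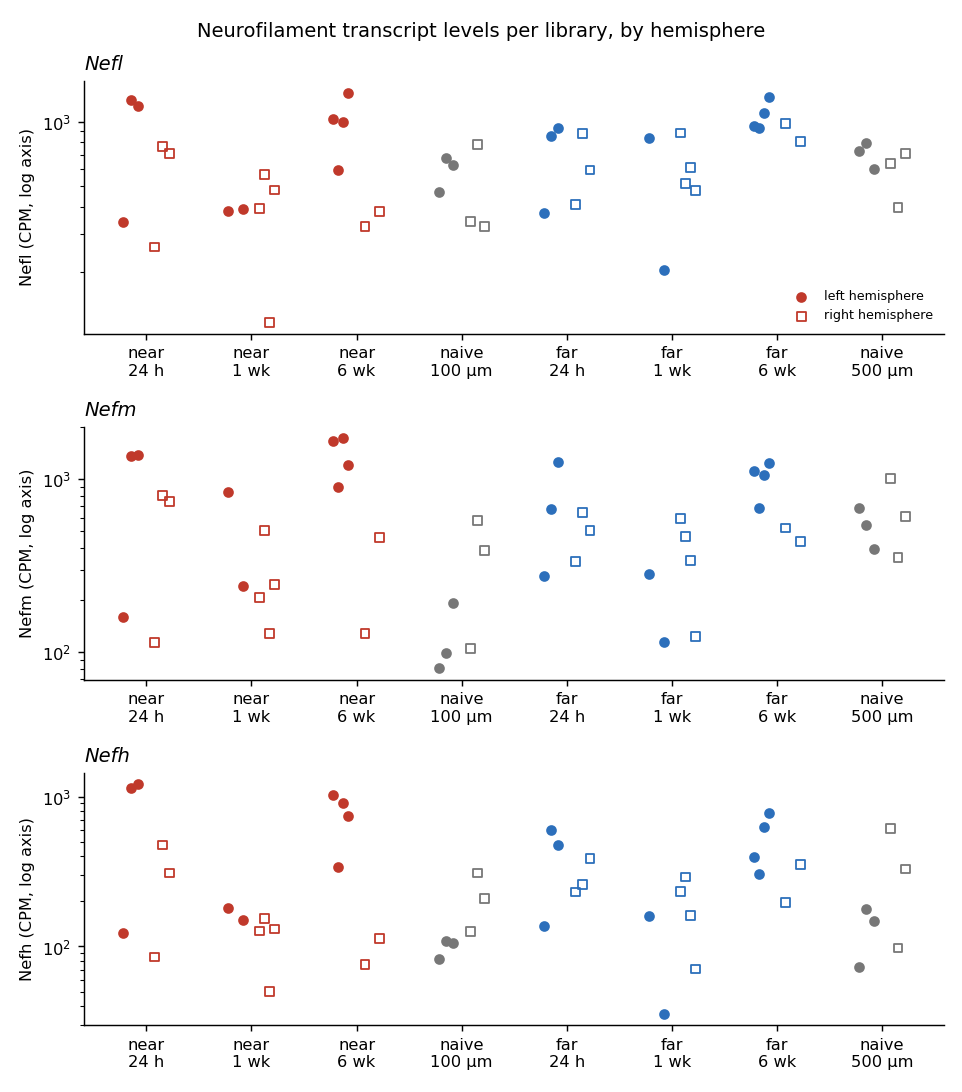
Level of Nefl, Nefm and Nefh per library (CPM, log axes), left hemispheres as filled circles and right hemispheres as open squares, by tissue and time. In near tissue at 6 weeks the 4 left libraries lie above the 2 right ones for all 3 genes, and the right ones lie within the range of the 1-week libraries.

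Naive cortex gives the level without an implant, although the naive libraries lie in a separate table with its own series of library numbers, so the implant and any batch effect cannot be told apart. Near tissue at 6 weeks was above every naive rat at 100 µm for Nefm (845 to 1512 against 94.3 to 412 CPM) and for Nefh (315 to 922 against 105.5 to 242 CPM). Such separation held for 2.7% of 12689 genes, and the exact permutation p was 0.0286 for both genes (4 rats against 3, the smallest possible). For Nefl the ranges overlapped, at 559 to 929 and 422 to 767 CPM. In edgeR the log2 fold changes were 0.45 ± 0.44 for Nefl, 2.03 ± 0.84 for Nefm and 1.75 ± 0.65 for Nefh (adjusted p = 1 for each), where 0.0434% of 13834 genes were called.

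By hemisphere the comparison at 6 weeks split in the same way. On left hemispheres alone the values at 6 weeks were 3.47 for Nefm (adjusted p = 0.661) and 2.93 for Nefh (adjusted p = 4.84e-10), and on right hemispheres alone they were -0.31 and -1.23 (adjusted p = 1 and 0.903). These fits hold few libraries, and the left one called 0.106% of 13241 genes. The limit on adjusted p-values given for the times holds for both fits too. Over all alternatives the adjusted p-values ran from 0.0266 to 1 for Nefm and from 4.84e-10 to 1 for Nefh. At 24 h the values over all libraries were 0.65 ± 0.47 for Nefl (adjusted p = 1), 1.82 ± 0.87 for Nefm and 2.05 ± 0.69 for Nefh (adjusted p = 0.811 for both), where 0.0578% of genes were called. Nefh at 24 h was called in 6 of 25 alternatives, with values from 0.34 to 3.07 and adjusted p-values from 2.4e-10 upward. The value of 3.07 came from left hemispheres alone, where 0.159% of 13241 genes were called. The same limit on adjusted p-values holds for fits with few rats here. At that time rats 29 and 30 lay above the naive range for all 3 genes, while rat 25 lay within it for Nefm and below it for Nefl and Nefh. At 1 week they were -0.57 ± 0.42, 0.58 ± 0.77 and -0.31 ± 0.59 (adjusted p = 1 for each), where 0.123% were called, and the naive and 1-week ranges overlapped for every member.

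Naive tissue at 500 µm was the reference for far tissue. At 6 weeks Nefl was above every naive rat, at 851 to 1033 CPM against 623 to 679 CPM, as were 4.08% of 11351 genes (exact permutation p = 0.0286, the smallest possible), and Nefm and Nefh overlapped with naive tissue. The log2 fold changes were 0.46 ± 0.24 for Nefl (adjusted p = 0.608), 0.32 ± 0.46 for Nefm (adjusted p = 1) and 0.54 ± 0.44 for Nefh (adjusted p = 0.916), where 0.0598% of 13369 genes were called. At 24 h they were 0.04 ± 0.25, 0.01 ± 0.48 and 0.43 ± 0.47 (adjusted p = 1 for each; 0.00748% of genes called). At 1 week they were -0.17 ± 0.22 for Nefl (adjusted p = 0.992), -0.90 ± 0.42 for Nefm (adjusted p = 0.517) and -0.66 ± 0.41 for Nefh (adjusted p = 0.677), where 0.127% of genes were called.

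Within naive cortex the 2 positions of the same rats were compared. Nefm was lower at 100 than at 500 µm in 3 of 3 naive rats, as were 7.39% of 11788 genes, with a ratio of 0.108 in rat n2 and 0.887 in rat n3. These values are sums of both hemispheres, and as single libraries the sides of rat n3 differed. Its right side held 577 CPM at 100 µm and 352 CPM at 500 µm, and its left side 99.3 and 544 CPM. The log2 fold changes were -0.33 ± 0.22 for Nefl, -1.47 ± 0.72 for Nefm and -0.71 ± 0.35 for Nefh (adjusted p = 1, 1 and 0.982), while the median of all genes was 0.40. By edgeR 0 of 11839 genes (0%) were called, 600 had an unadjusted p under 0.05, and by DESeq2 1357 were called. Without naive rat n3 the Nefm value was -2.15 (adjusted p = 2.13e-06) and without n2 it was -0.71 (adjusted p = 1; lowest and highest over the alternatives 2.13e-06 and 1), the first from 2 rats only. With the naive difference subtracted, near against far was 1.51, 1.39 and 1.77 for Nefm at 24 h, 1 week and 6 weeks and 1.56 over the times (adjusted p = 0.918, 0.587, 0.0643 and 0.0658). For Nefh it was 1.14, 0.27 and 1.04 and 0.82 over the times (adjusted p = 1 for each).

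The proportions of the subunits were followed as the ratio of Nefm or Nefh counts to Nefl counts of the same sum, in which depth cancels. The ratio depends on transcript length, so only the same ratio was compared between samples, and it is given without a test. Nefm per Nefl at 6 weeks was 1.36 ± 0.296 near and 0.85 ± 0.211 far (SD, n = 4), and it was higher near in 4 of 4 rats. As single libraries it was lower near in the right hemisphere of rat 17 (0.394 against 0.535) and in the left of rat 19 (0.886 against 0.949), and rats 2 and 11 gave left libraries only. At 1 week it was 1.06 ± 0.687 near and 0.566 ± 0.231 far (SD, n = 5), higher near in 3 of 5 rats, and rat 20 alone reached 2.21. At 24 h it was 0.881 ± 0.372 near and 0.897 ± 0.234 far. In naive tissue it was the lower at 100 µm in 3 of 3 rats, at 0.426 ± 0.175 against 0.928 ± 0.307. As single libraries it was higher at 100 µm in the right hemisphere of rat n5 (1.20 against 0.850) and lower in its left (0.308 against 0.651).

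Nefh per Nefl exceeded its far value near the implant in 9 of 12 implanted rats and at 100 µm in 1 of 3 naive rats. It was 0.659 ± 0.274 near and 0.505 ± 0.0516 far at 24 h, 0.364 ± 0.0834 and 0.287 ± 0.161 at 1 week, and 0.691 ± 0.221 and 0.413 ± 0.0825 at 6 weeks. Among the implanted groups the 1-week means were the lowest in each tissue, and the naive means were 0.281 ± 0.0326 at 100 µm and 0.387 ± 0.171 at 500 µm. By hemisphere the near ratio was higher on the left in 6 of 6 rats, the far ratio in 4 of 6, and the naive ratio in 0 of 6 pairs. Summed over the 3 genes, near tissue had the higher level in 2 of 3 rats at 24 h, 2 of 5 at 1 week and 1 of 4 at 6 weeks.

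Across the 24 sums of the implanted rats the 3 genes varied together. Among the 3010 genes whose log2 CPM averaged at least 5, the gene most like Nefm was Nefh, and the gene most like Nefh was Nefm (Pearson r of log2 CPM = 0.92). Nefl had an r of 0.84 with Nefh, which ranked 3rd among all genes for Nefl, and of 0.78 with Nefm, which ranked 18th. The genes most like Nefl were ENSRNOG00000008169 (r = 0.88) and ENSRNOG00000014230 (r = 0.84). Next to Nefh, the gene most like Nefm was ENSRNOG00000011211 (r = 0.84), and next to Nefm the gene most like Nefh was again ENSRNOG00000014230 (r = 0.87). The median r over all genes was 0.15 for Nefl, -0.01 for Nefm and 0.10 for Nefh. The sums share rats, libraries and scaling, so these values describe the data and carry no test.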

How the data were processed

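RNA from laser-cut tissue was sequenced in 48 libraries of 15 rats, from a kit that keeps strand, per the labels' protocols. The deposited tables hold read counts of genes, in 1 table of 17317 genes for implanted rats and 1 of 17616 for naive rats. Per the submitters' processing notes, which give no roles, the tools were RSEM 1.3.1, STAR 2.6.1b, FastQC 0.11.8, cutadapt 2.3 and DESeq2, with the build Rnor_6.0. RSEM can give fractional estimates, but all deposited counts were whole and were used unchanged; no source used here says whether the authors rounded them. The IDs of 0 of 18997 genes could be paired with symbols in RefSeq's rat gene table (assembly GRCr8), so gene lists and cell type markers were not analysed here, and no sequences are shown.

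The members and lists were chosen with earlier results of these data known. The rule named the 3 members in every comparison and, where IDs have no symbols, at most 2 IDs per member by likeness (log2 CPM, prior count 2). Counts were summed per rat and distance. Models were fitted in R 4.3.3 with edgeR 4.0.16 (TMM, filterByExpr, robust quasi-likelihood test, Benjamini-Hochberg adjustment), with calls at an adjusted p below 0.05. They were tested on simulated data, where most genes given a change were not called. The simulated near comparison of 1 with 6 weeks also called some unchanged genes. Fits of single hemispheres or with a rat left out were not simulated, and calls of fits with few rats may be less reliable than their adjusted p. The standard error was taken as the log2 fold change over the square root of F. Near and far tissue came from the same rats per the labels, so the rat was a block; the deviations of the 2 tissues correlated at 0.0057 to 0.0883, above 0.1 in 0 of 12 rats. Times, and implanted and naive tissue over the 15936 genes in both tables, were compared without a block. Levels of all 8 groups share 1 TMM scaling over these genes. Permutation and sign-flip tests (Python 3.11.15, log2 of CPM plus 1) were exact and two-sided. All 120 pairs of libraries of the same group differed by more than sampling noise (chi-square per degree of freedom at least 54.95). The labels name the rat of each library, so p-values measure the spread between animals, except where libraries were not summed.

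Alternatives were DESeq2 1.42.0 and its size factors, no filter, each rat left out, no few-gene libraries, scaling without the 2 most abundant genes, libraries not summed, no block, only the compared groups in the fit, both naive positions summed, the naive difference subtracted, and other pseudocounts (0 and 10 CPM). Added after seeing the data were the permutation tests between groups, the other scalings of the overlap, and single hemispheres.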

Additional observations from a re-analysis of the deposited data

Results flagged for a closer look

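Among 18 sets of values of 4 or 5 rats examined for a value far from the others, 1 was found. Nefm near the implant at 6 weeks was at 1512 CPM in rat 2 and at 845 to 862 CPM in the other 3 rats, so the gap to the nearest rat was 0.973 of the whole range. Chance flags about 1 in 20 groups. Rat 2 gave a single near library, from the left hemisphere. Its Nefh level of 922 CPM was also the highest of that group, and its Nefl level of 929 CPM was close to the 891 CPM of rat 19. Without rat 2 the near log2 fold change of Nefm from 1 to 6 weeks was 1.18 (adjusted p = 1), against 1.45 with it, and that of Nefh was 1.64 (adjusted p = 0.97) against 2.06.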

How the results depend on the processing

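Values here are log2 differences. Most results of the 3 genes were not called at an adjusted p below 0.05. Each member had at least 243 counts in every library, so no value rests on a count near 0.

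The call of Nefl near against far at 1 week (-0.82) lay under the threshold in each of these settings. They were DESeq2 size factors (-0.59), DESeq2's own test (-0.59), no low-count filter (-0.82), no few-gene libraries (-0.90) and no replicate block (-0.70, adjusted p = 0.534). They also were libraries not summed (-0.61), only the rats of that time (-0.80), the naive difference subtracted (-0.54), left hemispheres only (-0.087) and right hemispheres only (-0.82). Over the 23 alternatives its adjusted p ran from 0.000413 to 1, and the causes were not tested. Without the replicate block, Nefm turned to 0.14 at 1 week and the change of its near-far difference from 24 h to 6 weeks to -0.11, and no other call of a member changed. The called genes went from 57 to 6 at 1 week and from 19 to 0 at 24 h without it.

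With DESeq2 size factors and with DESeq2, Nefm near against far at 1 week was 0.19 in both, and Nefh near at 1 week against naive was 0.0047 and 0.0046. DESeq2 called Nefh near from 24 h to 1 week (-2.20), from 1 to 6 weeks (1.94) and at 24 h against naive (2.20), and Nefm near at 6 weeks against naive (2.22). Of all genes it called 1.99%, 1.25%, 2.89% and 1.32% in these comparisons, in that order. Without the low-count filter the same 3 Nefh comparisons were called (-2.39, 2.09 and 2.10), as were Nefh near at 6 weeks against naive (1.77) and Nefm and Nefh far from 1 to 6 weeks (1.22 and 1.20). That setting called 0.0552%, 0.0306% and 0.17% of genes in the 3 comparisons, and 0.0881% and 0.0437% in the others. Unsummed libraries gave calls for Nefh near from 24 h to 1 week (-2.08) and against naive at 24 h (1.84) and 6 weeks (1.76). They called 0.0566%, 0.298% and 0.124% of genes there, with no rat term, both hemispheres of a rat counting as separate replicates. They turned Nefm near against far to -0.037 at 24 h and 0.18 at 1 week, its change between these to 0.21, and Nefl near from 24 h to 6 weeks to 0.017. A fit of the 2 groups alone called Nefh near from 1 to 6 weeks (2.05), as 1 of 10396 genes (0.00962%). Subtracting the naive difference gave 1.51, 1.39, 1.77 and 1.56 for Nefm near against far at 24 h, 1 week, 6 weeks and over the times, and 1.14, 0.27, 1.04 and 0.82 for Nefh, with no member called. Dropping the few-gene libraries gave -0.034 for Nefm in the mean over times and -0.0022 for Nefm near at 1 week against naive, and summing both naive positions gave -0.26 for the latter.

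On right hemispheres alone 25 of 60 values changed sign. Near against far they were -0.17, -0.17 and -0.27 for Nefl, Nefm and Nefh at 24 h, -0.95 and -1.49 for Nefm and Nefh at 6 weeks, and -0.52 and -0.81 for these over the times. The changes of that difference were -0.50, -0.51 and -0.84 for the 3 genes from 1 to 6 weeks and -0.78 for Nefm from 24 h to 6 weeks. Near tissue gave -0.11 and -0.27 for Nefl and Nefh from 1 to 6 weeks and -0.86 for Nefm from 24 h to 6 weeks. Against naive tissue it gave -0.46 for Nefm at 1 week and -0.48, -0.31 and -1.23 for the 3 genes at 6 weeks. Far tissue gave -0.047 and -0.10 for Nefm and Nefh from 24 h to 6 weeks. Against naive tissue it gave -0.45 and -0.29 for these at 24 h, -0.50 and -0.39 at 6 weeks, and 0.058 for Nefl at 1 week.

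On left hemispheres alone 11 values changed sign and 9 became calls. Near against far, Nefm and Nefh were 1.33 and 1.13 at 1 week, Nefl was 0.0045 over the times, and the changes were 1.20 and 0.42 for Nefm and Nefh from 24 h to 1 week and -0.064, -0.91 and -0.65 for the 3 genes from 1 to 6 weeks. Nefl near from 24 h to 6 weeks was 0.097, Nefh near at 1 week against naive 0.75, and Nefl far at 24 h against naive -0.0034. The new calls were Nefh near against naive at 24 h (3.07) and 6 weeks (2.93), and Nefm and Nefh far from 24 h to 1 week (-1.90 and -2.10) and from 1 to 6 weeks (2.36 and 2.45). They also were Nefm far at 1 week against naive (-1.49), Nefh far at 6 weeks against naive (1.93) and Nefm between the naive positions (-2.21). Of all genes, these left fits called 0.159% and 0.106% near against naive at 24 h and 6 weeks. In far tissue they called 0.0166% from 24 h to 1 week and 0.0248% from 1 to 6 weeks. Far against naive they called 0.0638% at 1 week and 0.144% at 6 weeks, and between the naive positions 0.012%. The left 1-week groups held 2 rats each, so adjusted p-values may be too small.

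The exact permutation test over rats, on the difference of mean log2(CPM + 1), passed 0.05 unadjusted where the fits did not. This held near from 1 to 6 weeks (1.17, 1.71 and 2.06), far from 1 to 6 weeks (0.67, 1.32 and 1.32), near at 6 weeks against naive for Nefm and Nefh (2.19 and 1.69) and far at 6 weeks against naive for Nefl (0.50). The sign differed near from 24 h to 6 weeks for Nefl and Nefh (0.0040 and 0.13) and far at 24 h against naive for Nefl and Nefm (-0.017 and -0.048).

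With each rat left out in turn, near against far ran from -1.13 to -0.45 for Nefl at 1 week. For Nefm it ran from -0.41 to 0.65 at 24 h, -0.46 to 0.36 at 1 week and -0.037 to 0.32 over the times. The changes of the difference ran from -0.69 to 0.37, -0.038 to 0.79 and -0.31 to 0.75 for Nefm from 24 h to 1 week, 1 to 6 weeks and 24 h to 6 weeks, and from -0.69 to 0.30 for Nefh in the last. Near tissue from 24 h to 1 week ran from -1.63 to -0.79, -1.76 to -0.72 and -2.88 to -1.83 for the 3 genes. From 1 to 6 weeks it ran from 1.18 to 1.97 for Nefm and 1.64 to 2.26 for Nefh, and from 24 h to 6 weeks from -0.60 to 0.23, -0.30 to 0.73 and -0.80 to 0.23 for the 3 genes. Nefh near against naive ran from 1.51 to 2.605 at 24 h, from -0.50 to 0.10 at 1 week and from 1.33 to 2.16 at 6 weeks. In far tissue the values ran from -0.51 to 0.070 for Nefl from 24 h to 1 week, and from -0.032 to 0.65 and -0.22 to 0.34 for Nefm and Nefh from 24 h to 6 weeks. Against naive tissue it ran from -0.22 to 0.34 and -0.29 to 0.35 for Nefl and Nefm at 24 h and from -0.31 to 0.0037 for Nefl at 1 week. Nefm between the naive positions ran from -2.15 to -0.71. The sign-flip means ran from -0.023 to 0.26 for Nefm and -0.034 to 0.24 for Nefh over all rats, and for Nefm from -0.41 to 0.66 at 24 h and -0.46 to 0.32 at 1 week.

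The number of all genes called depended on the tool. Near against far, DESeq2 called 529, 1304 and 330 genes at 24 h, 1 week and 6 weeks and 1172 over the times. The edgeR alternatives called 0 to 41, 1 to 79, 0 to 41 and 11 to 242. For the changes of the difference DESeq2 called 249 to 416 genes and edgeR at most 17. Between times and against naive tissue, DESeq2 called 129 to 777 genes and edgeR at most 48, and between the naive positions 1357 and at most 9.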
